A study of Homo sapiens with 22 samples.

Results

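The comparison described here set a guide against HBB beside a non-targeting guide in HEK293 cells that carried the same effector, VPRP. It uses 4 of the 22 samples of the series, the 2 RNA libraries labelled VPRP with sgHBB and the 2 labelled VPRP with a non-targeting guide, and every gene of the count table. HEK293 is a line made from human embryonic kidney cells. VPRP is a fusion to dCas9, a Cas9 protein that binds DNA where its guide RNA directs it and does not cut. It joins VPR, a chain of the activation domains VP64, p65 and Rta, to p300, the histone acetyltransferase encoded by EP300. Per the labels' protocols, the cells were induced with dox over 48 hours, those positive for both GFP and BFP were sorted, and mRNA was captured on poly-T beads.

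The other 8 RNA libraries serve here only for scale and for the shared estimate of the spread. They hold 2 libraries each of VPR, p300 and p300 D1399Y (a form of p300 whose amino acid change weakens its enzyme activity), all with the HBB guide, and of WT cells that carried a guide and no effector and were sorted for BFP alone. The labels do not state the guide of the WT cells or the sequence of any guide. The 10 H3K27ac samples of the series were not analysed here. The series calls the 2 libraries of a group biological replicates, and its protocol calls them duplicates. Nothing says that they came from separate cultures, so p-values measure the spread between these libraries, which may be technical.

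A guide-directed activator is meant to raise transcription at the promoter its guide matches. VPR recruits the transcription machinery through its activation domains, and p300 acetylates histones, a mark found at active promoters and enhancers. HBB encodes the beta chain of adult haemoglobin and is silent outside the red cell lineage. The non-targeting guide shows what the same effector leaves in the cells without a genomic target. The 2 sides here differ in the guide, and they also differ in the amount of EP300 reads, given below. The guide cannot be told apart from any other difference between the cell populations used for the 2 sides.

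Total counts were 15245246 and 17377472 with the HBB guide and 15470279 and 16958062 with the non-targeting guide, and 14276 to 14776 genes reached 1 CPM. CPM is the read count scaled to a common library size, corrected for library composition, and levels are given for replicate 1 and then replicate 2. The 2 libraries of a group differed by more than sampling noise, with a variance of 8.18 times the Poisson value with the HBB guide and 2.86 times with the non-targeting guide. A log2 difference is always the HBB guide minus the non-targeting guide, and a gene is called when its p from the quasi-likelihood test of edgeR, adjusted by Benjamini-Hochberg over all 16694 tested genes, is under 0.05. The counts came from bulk RNA, in which fewer cells that express a gene and less RNA per cell cannot be told apart. Of the 10 tested genes characteristic of HEK293, 3 were higher and 2 lower, where 14.9% and 14.4% of all tested genes were, and their summed level was 424 to 433 CPM with the HBB guide and 440 to 459 with the non-targeting guide. The kidney factor PAX8 was read at 0.391 CPM at most. Among 12 leukocyte markers CD68 had no read, and the list summed to 10.0 to 10.1 CPM with the HBB guide and 14 to 14.2 with the non-targeting guide. Of its 6 tested genes 3 were lower, and 0 of them without HBB-guide replicate 1. Red cell markers summed to at most 7.77 CPM.

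HBB (ENSG00000244734) was read at 1732 and 1379 CPM with the HBB guide, from 26554 and 24967 counts, and had no read in either non-targeting library. Over the 2 non-targeting libraries a count of 0 allows a level of up to 0.0868 CPM. HBB was therefore at least 17738-fold higher with the HBB guide (log2 limit 14.11, adjusted p = 4.49e-30), and it ranked 61 by CPM among all genes of those cells. Intervals and limits come from counts summed over a group. They cover counting error only and leave out the spread between libraries. The reads carry no molecular identifiers. With the same guide the other effectors gave a mean HBB level of 80.4 CPM (VPR), 187 CPM (p300) and 79.1 CPM (p300 D1399Y).

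No gene next to HBB was called with it. Of the 30 genes that flank it, 15 on either side in the RefSeq order, 27 are in the count table, 14 of these had no read in the 4 libraries, and 24 had 10 counts or fewer. Of the neighbours, 2 passed the count filter and 0 were called by edgeR. HBE1, embryonic epsilon-globin, was at 2.61 and 2.38 CPM with the HBB guide and 2.55 and 2.60 with the non-targeting guide (log2 -0.05, SE 0.38, adjusted p = 0.939). HBG2, a fetal gamma-globin with a near-identical copy, was at 0.652 and 0.608 CPM against 0.182 and 0.222. The HBG2 libraries did not overlap, and the difference did not pass (log2 1.60, SE 0.86, adjusted p = 0.168). HBD, the delta-globin gene next to HBB, had 4 counts over the 4 libraries.

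Reads of EP300 may stem from the chromosome or from the effector, and a gene count cannot say which. Its level was 351 and 398 CPM with the HBB guide and 1165 and 1179 with the non-targeting guide, a 3.13-fold lower value on the side of the HBB guide (log2 -1.64, SE 0.082, adjusted p = 2.74e-17). WT cells had 107 CPM, and the excess over WT with the HBB guide was 25.2% of that with the non-targeting guide. CREBBP, the close relative of EP300, was at 109 and 118 CPM against 120 and 123 (log2 -0.10, adjusted p = 0.315). RELA, which encodes p65 and can likewise be read from the construct, was at 94.2 and 92.6 CPM against 106 and 119 (log2 -0.27, adjusted p = 0.00856), a call lost without replicate 2 of either group. RELA had means of 117 CPM in WT, which holds no effector, and 97.5 with VPR, so neither VPRP group was above WT on average. The 2 sides held unequal EP300 reads, and the part of this in the results below was not tested.

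**Figure D1:**
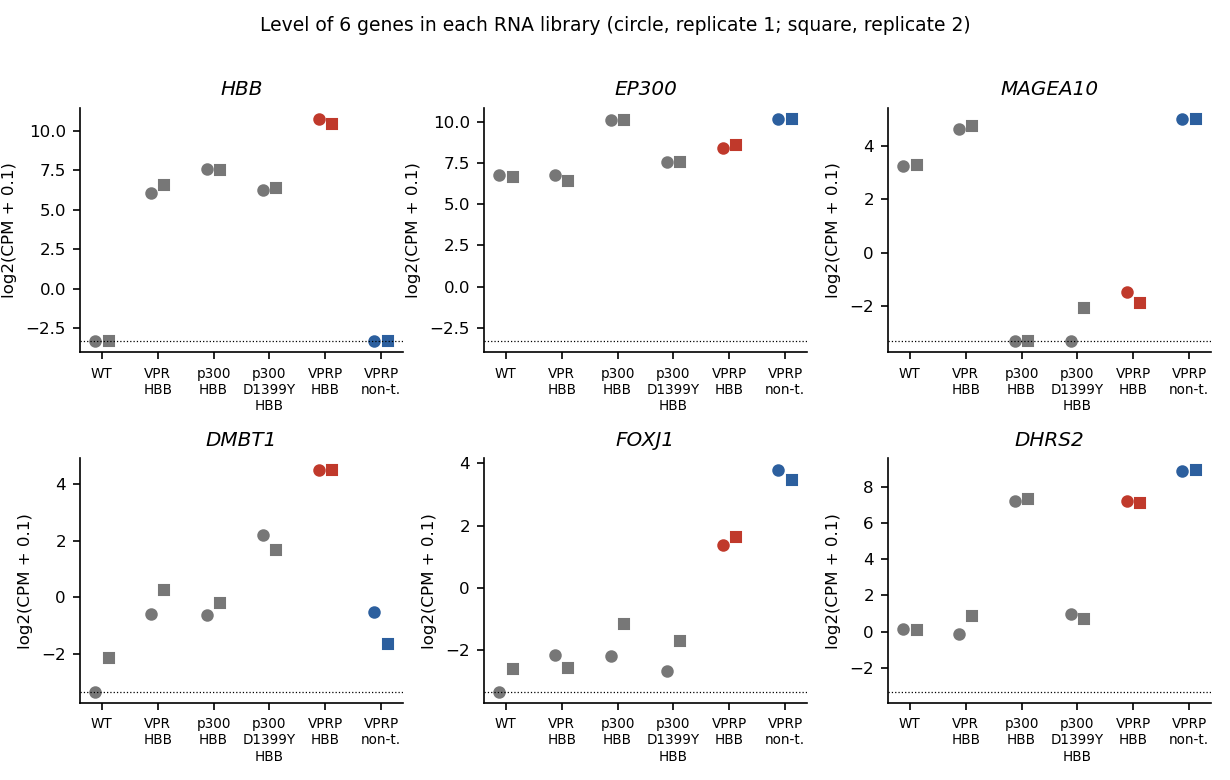
Level of 6 genes in each of the 12 RNA libraries, as log2(CPM + 0.1), by effector and guide (circle, replicate 1; square, replicate 2; red, VPRP with the HBB guide; blue, VPRP with the non-targeting guide; grey, other groups; dotted line, a level of 0 CPM). HBB is at 0 in the non-targeting and WT libraries, EP300 is high in the p300 libraries and in the non-targeting libraries of VPRP, and MAGEA10 is low in 3 of the 4 groups with an effector and the HBB guide.

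Many genes other than HBB differed between the guides, most of them by little. Of 16694 tested genes 4898 were called (29.3%), 2491 higher with the HBB guide (14.9%) and 2407 lower (14.4%), and the median absolute log2 difference of the called genes was 0.50. The call was at least 2-fold for 336 genes that were higher (2.01%) and 628 that were lower (3.76%). At least 10-fold differences were found for 28 higher genes, HBB included, and for 65 lower genes. The total of 4898 became 3185 without non-targeting replicate 1 and 3200 without replicate 2. In the same 2 fits the lower genes became 1411 and 1392, and they became 1583 and 1591 without HBB-guide replicate 1 or 2. Those at least 2-fold lower became 417 without HBB-guide replicate 1.

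The calls of at least 2-fold lay mostly among genes of low level. Of genes with a mean under 1 CPM, 10.5% were called at least 2-fold lower and 3.55% at least 2-fold higher. Between 1 and 4 CPM the shares were 9.43% and 3.97%, and above 64 CPM they were 0.253% and 0.225%. Under 1 CPM all 73 higher and 215 lower calls were at least 2-fold, so no smaller difference was called there. Above 64 CPM 757 genes were called higher and 528 lower at any size. A gene of low level may also have passed the count filter only through the group where it was high. The shares therefore describe the calls and not the size of change at each level. By RefSeq gene class, 8.33% of 1056 long noncoding RNA genes and 11.4% of 289 transcribed pseudogenes were at least 2-fold lower, against 2.65% of 13714 protein-coding genes. Higher calls of that size were spread more evenly, at 1.99%, 1.04% and 2.13%. The classes were not matched for level, and genes of any class under 1 CPM had a lower share of 10.5%. The part of level in the difference between classes was not tested.

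**Figure D2:**
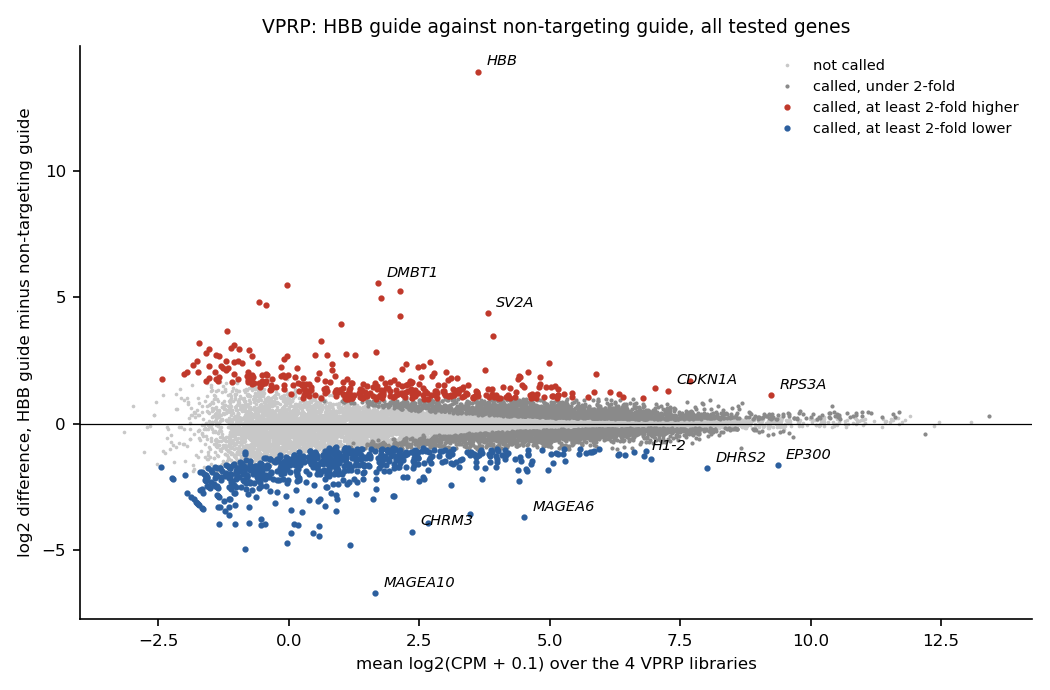
Difference between the HBB guide and the non-targeting guide for each tested gene, as the difference of mean log2(CPM + 0.1), against the mean log2(CPM + 0.1) over the 4 VPRP libraries. HBB stands alone at the top, and the genes called at least 2-fold lower (blue) crowd at low levels, with 10.5% of the genes under 1 CPM and 0.253% of those above 64 CPM. Under 1 CPM no difference of less than 2-fold was called.

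The genes with the largest rise were taken among those with a symbol, a mean log2 CPM of at least 1 and groups that did not overlap. After HBB the first was DMBT1, a secreted mucosal glycoprotein, at 22.6 and 22.2 CPM with the HBB guide and 0.607 and 0.222 with the non-targeting guide, 54.2-fold higher. Its HBB-guide libraries lie far above every other library, the next group being p300 D1399Y with a mean of 3.78 CPM. EVPL, which encodes envoplakin of the cornified envelope, was at 24.5 and 29.5 CPM against 0.425 and 0.887 (40.2-fold). Here p300 D1399Y, with a mean of 26.5 CPM, lay between the HBB-guide libraries of VPRP. MYO1A, a brush border myosin, rose 35.5-fold, from 0.425 and 0.609 to 19.9 and 17.6 CPM. COL16A1, a collagen, rose 21.2-fold to 17.8 and 20.4 CPM. SV2A, a synaptic vesicle glycoprotein, was at 65.6 and 61.4 CPM against 3.71 and 2.44 (20.8-fold). For each of these genes the groups did not overlap, and the adjusted p was 4.69e-15 or less.

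Further genes of the 12 with the largest rise were read at lower to middle levels. TMEM37 was at 54.1 and 46.3 CPM against 4.37 and 4.49 (11.3-fold). PLXNA4, a plexin receptor for axon guidance cues, was at 7.57 and 9.28 CPM against 0.972 and 1.22 (7.63-fold). COL2A1, the collagen of cartilage, was at 74.3 and 71.3 CPM against 13.4 and 14.2 (5.26-fold). MAPK13, a p38 kinase, rose 7.44-fold, DTX3L, a ubiquitin ligase, 7.16-fold, and ACTA2, smooth muscle actin, 5.33-fold. PLXNA4 was near 1 to 2 CPM in all other groups. COL2A1 had means of 38.6 CPM in WT, 56.0 with VPR, 97.3 with p300 and 142 with p300 D1399Y, so its non-targeting level was the lowest of all groups.

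The genes with the largest fall were led by MAGEA10, an antigen that normal tissue expresses in testis. It was at 0.261 and 0.166 CPM with the HBB guide and 32.1 and 32.0 with the non-targeting guide, 148-fold lower (log2 -7.21, SE 0.27, adjusted p = 1.86e-20). Other groups lay at either end, with 9.46 CPM in WT and 25.9 with VPR but 0 with p300 and 0.0692 with p300 D1399Y. CHRM3, a muscarinic acetylcholine receptor, was at 1.37 and 0.829 CPM against 24.6 and 20.6 (20.8-fold lower), and its other groups were split in the same way, with 18.3 CPM in WT, 19.4 with VPR, 0.807 with p300 and 0.6 with p300 D1399Y. The noncoding RNA LINC01419 was 34.9-fold lower, the pseudogene TSSC2 16-fold, and SYT5, a synaptotagmin, 7.09-fold. LINC00665 was at 3.91 and 3.31 CPM against 20.0 and 19.5 (5.49-fold lower), and GALNT14, an enzyme that starts O-linked glycans, was 5.05-fold lower.

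Among abundant genes the changes were smaller. CYBA, a subunit of the NADPH oxidase, was at 407 and 333 CPM against 123 and 107 (3.22-fold higher). KIF1A, a motor for synaptic vesicle precursors, was 2.63-fold higher, and TSC22D3, a glucocorticoid-induced gene, 2.36-fold. TSC22D3 had means of 110 CPM with the HBB guide and 46.4 with the non-targeting guide. Both were below its means of 454 CPM in WT, 162 with VPR, 363 with p300 and 310 with p300 D1399Y. RPS3A, a protein of the small ribosomal subunit with many processed copies, was at 1058 and 756 CPM against 439 and 385 (2.20-fold), and its HBB-guide libraries differed more from each other than the non-targeting ones. DHRS2, a mitochondrial reductase, was at 147 and 135 CPM against 461 and 494 (3.39-fold lower). DHRS2 was near 1 CPM in WT, VPR and p300 D1399Y, and at 156 CPM with p300, so the HBB-guide libraries of VPRP were near those of p300 and the non-targeting ones above them. NDRG1, induced by low oxygen, was 2.65-fold lower, and NRARP, a Notch feedback gene, 2.38-fold.

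Replication-dependent histone genes, which supply core and linker histones during DNA synthesis, were lower as a group with the HBB guide. Of 36 listed genes 19 passed the count filter, 15 fell and 0 rose, and 13 of the 15 fell at least 2-fold. The counts of this and the later lists stand beside 14.9% higher and 14.4% lower among all tested genes. Over 19 members the median log2 difference was -1.19, beside -0.01 over all tested genes, and over the alternatives 10 to 15 members fell. H2AC6, a core histone H2A gene, was at 12.8 and 11.7 CPM against 44.0 and 46.7 (log2 -1.89, SE 0.12, adjusted p = 2.98e-14). H1-2, a linker histone gene, was at 75.4 and 66.9 CPM against 176 and 173 (log2 -1.30, SE 0.086, adjusted p = 6.23e-14). H2BC5, a histone H2B gene, was at 31.3 and 31.4 CPM against 74.3 and 69.0 (log2 -1.19, SE 0.10, adjusted p = 5.71e-11). In each of the 3 the groups lay well apart, and the 2 libraries of a group were close. The list summed to 295 to 307 CPM with the HBB guide and 580 to 606 with the non-targeting guide, but to 130 to 131 in WT. It summed to 192 to 198 CPM with VPR, 314 to 317 with p300 and 181 to 197 with p300 D1399Y. Both VPRP groups were therefore above WT in these genes, the non-targeting one further.

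H4C8 fell by 1.56, H4C3 by 1.46 and H2AC11 by 1.39 on the log2 scale. H1-5, H2AC20, H2BC13 and H4C11 were not called. Most mRNAs of these genes end in a stem-loop and carry no poly(A) tail, and poly-T beads captured the RNA, so the levels describe the polyadenylated part. The copies are alike in sequence, and reads may be split between them. Most of these genes sit in 1 cluster, and the 15 tested genes from C6orf62 to H4C8 had a median log2 difference of -1.19, with 9 lower and 0 higher. Genes of DNA replication did not fall with the histones. Of 25 tested S-phase genes 9 rose and 1, the licensing factor CDT1, fell. RRM2, a subunit of ribonucleotide reductase, was at 234 and 228 CPM against 172 and 183 (log2 0.38, adjusted p = 7.19e-05), and TYMS, thymidylate synthase, rose by 0.51 on the log2 scale. The S-phase count became 14 without either VPR library. Of 27 mitosis genes 5 rose and 3 fell, with a median of -0.02, and the 5 became 3 without non-targeting replicate 2.

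The promoters of 3 of the lower histone genes are printed to show the CCAAT boxes and TATA boxes found in this family. Each line gives the 250 bases before the start of the gene, 5′ to 3′ in the sense of the gene, from RefSeq on GRCh38.p14. Capitals mark the CCAAT box (CCAAT, or ATTGG on the other strand) and the TATA box (TATAAA, or TTTATA on the other strand).
H2AC6, chr6:26123922-26124171, plus strand: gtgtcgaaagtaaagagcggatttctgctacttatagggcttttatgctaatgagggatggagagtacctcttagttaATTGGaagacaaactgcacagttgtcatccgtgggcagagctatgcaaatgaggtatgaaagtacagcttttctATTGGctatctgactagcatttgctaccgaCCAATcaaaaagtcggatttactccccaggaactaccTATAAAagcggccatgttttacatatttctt
H2BC5, chr6:26157871-26158120, plus strand: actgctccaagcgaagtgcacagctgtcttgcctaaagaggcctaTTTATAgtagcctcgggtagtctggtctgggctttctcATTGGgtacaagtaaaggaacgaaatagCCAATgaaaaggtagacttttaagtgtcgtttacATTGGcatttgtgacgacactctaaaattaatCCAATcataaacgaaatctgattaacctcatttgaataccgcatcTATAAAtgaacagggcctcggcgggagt
H1-2, chr6:26056471-26056720, minus strand: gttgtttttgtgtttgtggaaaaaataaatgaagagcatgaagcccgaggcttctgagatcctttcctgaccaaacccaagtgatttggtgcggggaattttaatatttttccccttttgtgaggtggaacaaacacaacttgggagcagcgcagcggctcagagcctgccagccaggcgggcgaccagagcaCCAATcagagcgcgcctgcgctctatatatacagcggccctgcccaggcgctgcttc

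H2AC6 holds 3 CCAAT boxes, the nearest 68 bases before the start, and a TATA box 31 bases before it. H2BC5 holds 4 CCAAT boxes, and its nearest TATA box lies 28 bases before the start. H1-2 has 1 CCAAT box, 57 bases before the start, and no TATAAA in this window. Of the 19 tested histone genes 18 have a promoter in the RefSeq table, and 16 of these hold a CCAAT box, beside 33.0% of all 27305 promoters of that length. Among the histone promoters the box was present in 13 of 14 lower genes and 3 of 4 genes not called. The TATA box was present in 13 of the 18, 10 of 14 lower and 3 of 4 not called, beside 11.1% of all promoters.

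Immediate early genes, which growth factors and stress switch on within minutes, were also lower. Of 24 tested genes 18 fell and 1 rose, with a median log2 difference of -0.63, and 14 to 18 fell over the alternatives. JUN, a subunit of AP-1, was at 298 and 286 CPM against 572 and 557 (log2 -0.95, SE 0.070, adjusted p = 1.11e-12). ZFP36, which destabilises mRNAs, was at 7.70 and 7.51 CPM against 16.6 and 19.1 (log2 -1.23, adjusted p = 2.98e-06). JUNB fell by 0.98, DUSP1, a MAP kinase phosphatase, by 0.97 and IER2 by 0.86 on the log2 scale. MYC, the growth regulator, was at 114 and 109 CPM against 169 and 167 (log2 -0.59, adjusted p = 4.91e-08). In all of these the 2 groups were separated, and the gene that rose was BTG2, an antiproliferative gene (log2 0.33, adjusted p = 0.00182). MYC lies in NTAQ1 to ZNF696, a run of 50 neighbouring tested genes with a median log2 difference of -0.57, 35 lower and 0 higher. NDRG1 lies in the same run, and the part of the run in the fall of either gene was not tested.

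Neighbouring pathways showed fewer calls in the same direction. Of 15 feedback genes of the MAP kinase pathway 8 fell and 0 rose (5 without either non-targeting library), among them the phosphatases DUSP4 (log2 -1.45), DUSP5 (log2 -1.0) and DUSP8 (log2 -0.90). Of 16 CREB factors and cAMP-responsive genes 7 fell and 0 rose, and the nuclear receptor genes NR4A3 (log2 -1.43) and NR4A2 (log2 -1.11) and the kinase SIK1 (log2 -0.78) were among them. Of 13 NF-kB factors and feedback genes 5 fell and 0 rose (3 without non-targeting replicate 2). NFKBIE, an inhibitor of NF-kB, was at 21.5 and 21.9 CPM against 37.6 and 35.2 (log2 -0.75, adjusted p = 6.4e-06). The medians of the 3 lists were -0.48, -0.17 and -0.29.

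Targets of p53 were mostly higher. p53 is the damage sensor that halts the cell cycle or triggers cell death, and HEK293 cells carry adenoviral proteins that bind it. Of 24 tested genes 17 rose and 4 fell, with a median log2 difference of 0.42, and 12 to 17 rose over the alternatives. CDKN1A, the cell cycle inhibitor p21, was at 246 and 238 CPM against 101 and 95.3 (2.47-fold, SE 0.072 on the log2 scale, adjusted p = 3.81e-16). TP53I3 was at 11.9 and 11.7 CPM against 5.59 and 4.6 (2.32-fold), and SESN1, a sestrin, at 78.9 and 76.1 against 34.7 and 39.1 (2.10-fold). MDM2, the ubiquitin ligase that degrades p53, was at 105 and 127 CPM against 67.6 and 66.8 (1.73-fold). XPC and DDB2, which recognise DNA damage, rose by 0.63 and 0.47 on the log2 scale.

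The p53 targets that fell included BBC3, which encodes the death protein PUMA, at 30.7 and 26.9 CPM against 56.4 and 51.8 (log2 -0.91, adjusted p = 1.12e-08). PLK2 (log2 -0.77) and the phosphatase PPM1D (log2 -0.43) fell too. The list was therefore not uniform, and its members at both ends had groups that did not overlap. Of 13 cell cycle inhibitors 2 rose, CDKN1A and RB1 (lost without replicate 2 of either group), and 6 fell, among them GADD45B (log2 -1.18) and CDKN2D (log2 -0.90).

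Genes of the integrated stress response and the unfolded protein response, taken as 1 list, went both ways. Of 26 genes 10 rose and 5 fell, with a median log2 difference of 0.16. Those that fell included the stress phosphatase subunit PPP1R15A, at 51.5 and 51.7 CPM against 126 and 117 (log2 -1.23, adjusted p = 3.39e-13), the death-promoting factor DDIT3 (log2 -1.06) and the central factor ATF4, at 694 and 660 CPM against 987 and 950 (log2 -0.52). Those that rose included the serine synthesis gene PHGDH (log2 0.32) and chaperones of the endoplasmic reticulum. HSPA5, the chaperone BiP, was at 913 and 854 CPM against 659 and 682 (log2 0.40, adjusted p = 2.35e-05), CALR rose by 0.49 and DNAJC3 by 0.64 on the log2 scale.

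Interferon and antigen presentation genes leaned upward. Of 18 tested interferon-stimulated genes 5 rose and 1 fell, with a median of 0.12, and the 1 that fell was not called without either HBB-guide library or without non-targeting replicate 2. IFI6 was at 41.8 and 39.8 CPM against 17 and 18.9 (2.27-fold), and IFIT1, which binds foreign RNA, at 12.1 and 11.9 against 4.68 and 4.99 (2.47-fold). Of 15 genes of MHC class I presentation 7 rose and 1 fell, with a median of 0.31. The 7 became 3 without HBB-guide replicate 1 and 4 without non-targeting replicate 1, and the 1 became 0 without HBB-guide replicate 2 or non-targeting replicate 1. TAPBP, which loads peptides onto class I molecules, was at 26.0 and 27.8 CPM against 15.1 and 12.2 (1.97-fold), and HLA-B was 1.29-fold higher.

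Several germline and early embryo genes were lower. Of 34 cancer-testis antigens, genes of the germline that tumours can switch on, 11 passed the count filter, 8 fell and 0 rose, with a median log2 difference of -1.65. MAGEA6 was at 5.87 and 6.63 CPM against 79.2 and 83.9 (13-fold lower), MAGEA3 at 3.78 and 2.60 against 40.2 and 36.2 (12.1-fold) and MAGEB2 at 10.1 and 9.06 against 46.9 and 45.8 (4.85-fold). MAGEC1 and MAGEC2 were 3.13-fold and 2.98-fold lower. The MAGEA genes are near-identical copies, and the assignment of reads between them is uncertain. Of 29 genes of cleavage-stage embryos and targets of DUX4, the factor that switches on that programme, 11 were tested. Of these 6 fell and 0 rose, with a median of -0.90. The list summed to 120 to 135 CPM with the HBB guide and 260 to 262 with the non-targeting guide, but to 0.739 to 1.16 in WT. Both VPRP groups were therefore far above WT in these genes, the non-targeting one further. A gene of either list may have passed the count filter only through a group where it was high. Where that was the non-targeting group, the counts and the median are tilted downward, so they describe the tested members only. RFPL4A was at 37.6 and 36.5 CPM against 81.6 and 80.8 (2.19-fold lower), and FRG2B (2.31-fold) and FRG2C (2.12-fold), copies of 1 family, were lower. These 3 were the calls left of the 6 when any one of the 4 VPRP libraries was left out.

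Collagen genes had more members higher than lower. Of 33 tested collagen genes 16 rose and 2 fell, with a median log2 difference of 0.38, and 10 rose without non-targeting replicate 1. The 2 that fell became 0 or 1 without any one of HBB-guide replicate 1 and the non-targeting libraries. COL4A1 and COL4A2, the paired chains of basement membrane collagen, were at 61.5 and 54.6 CPM against 19.9 and 20.9 (2.84-fold) and at 125 and 116 against 49.6 and 57.2 (2.25-fold). COL14A1 was 2.59-fold and COL1A1 1.53-fold higher. Of 22 epithelial and cornified envelope genes 9 rose, 13 did not pass the test and 0 fell, with a median of 0.08. CDH1, E-cadherin, was at 17.2 and 17.8 CPM against 10.7 and 9.31 (1.75-fold), and ESRP2, an epithelial splicing factor, was 1.85-fold higher.

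Genes of the mesenchymal transition were split. Of 19 tested, 7 rose and 4 fell, and the lower count became 2 with either non-targeting library left out or without HBB-guide replicate 1. TWIST2, a transcription factor, was at 4.11 and 2.93 CPM against 0.0607 and 0. That is 116 counts against 1, a ratio of 120 with an exact 95% interval of 21.1 to 4773. SPARC, a matrix glycoprotein, rose 4.66-fold and AEBP1 3.71-fold. SNAI2, a repressor of E-cadherin, was at 8.68 and 9.0 CPM against 17.3 and 19.1 (2.06-fold lower), and SNAI1 was 1.92-fold lower. Fibroblast markers rose for 3 of 6 tested genes and fell for none, and the 9 markers summed to 175 to 177 CPM against 113 to 120. Their part in the collagen result was not tested. DCN and COL1A2, which define fibroblasts, had at most 0.443 and 0.326 CPM in any of the 4 libraries.

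Neuronal genes went both ways. Of 27 tested genes of neuronal structure and synaptic vesicles 9 rose and 7 fell, with a median of 0.04. SV2A and NCAM2, an adhesion molecule at 7.31 and 8.07 CPM against 0.243 and 0.665 (16.4-fold), led the rise, while SYT5 and STX1A, a syntaxin (2.46-fold), led the fall. NEFM, a neurofilament, was at 55.5 and 60.2 CPM against 98.7 and 91.5 (1.64-fold lower), and the related filament gene INA was at 48.5 and 50.0 against 27.9 and 25.8 (1.83-fold higher). Of 14 neurotransmitter receptors and ion channels 3 rose and 5 fell. GABRA3, a GABA receptor subunit, was at 0.196 and 0.221 CPM against 5.71 and 6.59 (28.4-fold lower), and GLRB, a glycine receptor subunit, was 2.18-fold higher.

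**Figure D3:**
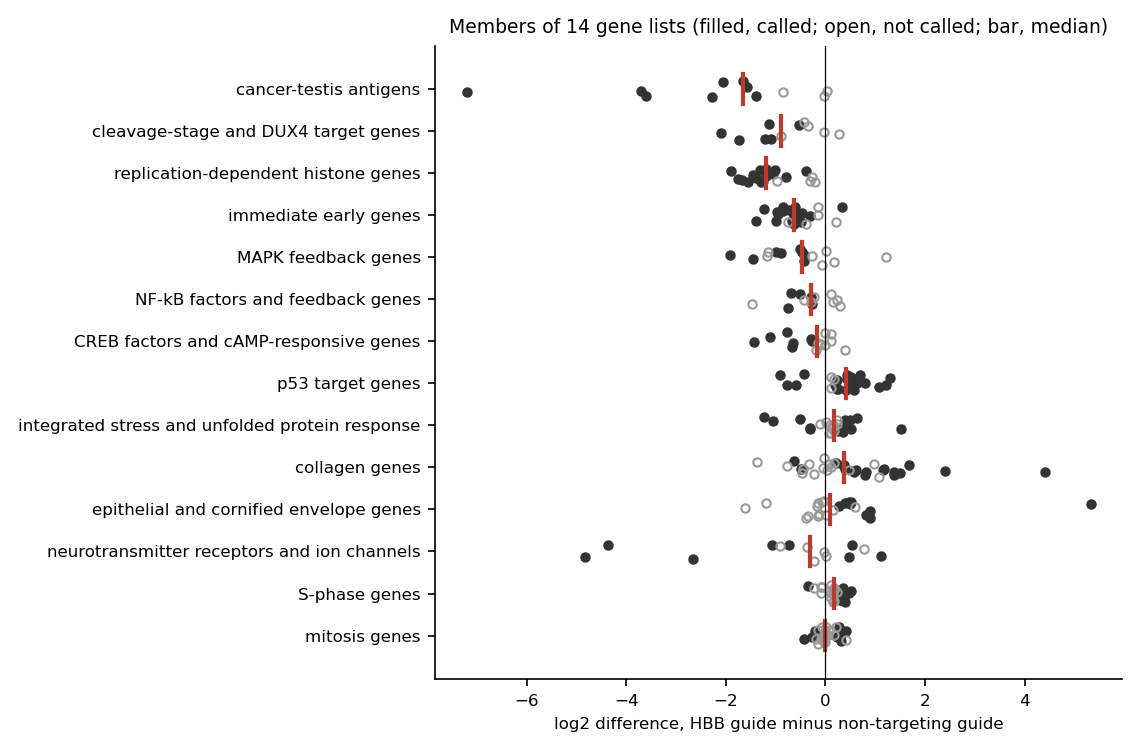
Log2 difference between the HBB guide and the non-targeting guide for the tested members of 14 gene lists (filled, called by edgeR's quasi-likelihood test; open, not called; red bar, the list's median). The cancer-testis, histone and immediate early lists have medians of -1.65, -1.19 and -0.63, and the p53 list has a median of 0.42.

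Apart from EP300, no listed histone acetyltransferase, reader of acetylated lysine or Mediator gene was called at a difference of 2-fold or more. Of 13 histone acetyltransferases, EP300 included, 1 rose and 2 fell, and EP300 alone fell without any one of the 4 VPRP libraries. KAT2B, the acetyltransferase PCAF, was at 18.8 and 18.6 CPM against 10.6 and 12.0 (log2 0.72, adjusted p = 7.33e-05). Of 17 readers of acetylated lysine and Mediator genes 4 rose and 4 fell, none by more than MED23 (log2 0.51). The 4 that fell became 0 without either non-targeting library, and 1 and 2 without HBB-guide replicate 1 and 2, and the 4 that rose became 2 without HBB-guide replicate 2. Among 15 tested erythroid and red cell genes, which HBB belongs with in blood, 3 rose and 2 fell. CA2, carbonic anhydrase, was at 345 and 302 CPM against 184 and 183 (1.76-fold higher), ANK1, an ankyrin of the red cell membrane, was 2.64-fold higher, and EPOR, the erythropoietin receptor, was 1.63-fold lower.

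Zinc finger genes tended downward. Of 451 tested genes named ZNF, 127 fell and 16 rose, with a median log2 difference of -0.19, and the count that fell became 82 without HBB-guide replicate 1 and 74 without non-targeting replicate 2. The 16 that rose became 5, 9 and 6 without HBB-guide replicate 2 and non-targeting replicates 1 and 2. ZNF296 was at 17.1 and 16.3 CPM against 61.6 and 56.6 (3.54-fold lower). ZNF681, in a cluster of such genes, was at 0.587 and 1.60 CPM against 9.54 and 7.59 (7.54-fold lower). Their sequences are alike, so reads may be assigned to the wrong member. Of 35 tested HOX genes 2 rose and 9 fell. The 9 became 3 without non-targeting replicate 1 and 5 without HBB-guide replicate 2, and the 2 became 1 without HBB-guide replicate 1 or either non-targeting library. Of 79 ribosomal protein genes 28 rose and 2 fell, and the 28 became 11 without HBB-guide replicate 1, 48 without HBB-guide replicate 2 and 18 without non-targeting replicate 2, so the 2 HBB-guide libraries differed in these genes.

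Some of the differences ran along the genome. Tested genes were placed in RefSeq order on each chromosome, and the median log2 difference was taken over each run of 25. Of the 14832 runs 1% had a median below -0.50 and 1% above 0.56. The stretches and the genes named from them were chosen after their values were seen. The highest run, ABHD13 to GAS6, had a median of 1.04, with 20 genes higher and 0 lower, and holds COL4A1 and COL4A2. LAMP1, a lysosomal membrane protein, was at 121 and 105 CPM against 60.3 and 58.0 there, and TFDP1, the partner of E2F factors, at 157 and 160 against 79.9 and 76.0. The next, ING2-DT to FAT1, had a median of 1.03, also with 20 higher and 0 lower. FAT1, a giant cadherin, was at 46.8 and 53.4 CPM against 23.7 and 25.3. The adjusted p of LAMP1, TFDP1 and FAT1 was 1.46e-09 or less, and their groups did not overlap.

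The lowest run, ZNF56P to ZNF91, is a cluster of zinc finger genes with a median of -1.57, 15 genes lower and 1 higher. ZNF737 was at 0.131 and 0.221 CPM against 3.95 and 4.32, and ZNF91, a repressor of retrotransposons, at 2.28 and 2.65 against 11.2 and 13.2. The adjusted p was 3.73e-08 for ZNF737 and 1.88e-09 for ZNF91, while 9 of the 25 genes were not called. SHARPIN to ZNF34 had a median of -0.69, with 23 of 25 genes lower and 0 higher. HSF1, the master factor of the heat shock response, was at 100 and 92.7 CPM against 156 and 149 there (adjusted p = 2.15e-08). With runs of 50 genes the highest was STK24 to UPF3A (median 0.88, 40 higher and 0 lower), which extends the first stretch, and the lowest RHPN1-AS1 to ZNF34 (median -0.65, 41 lower and 1 higher). With runs of 15 the histone cluster was the second lowest.

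**Figure D4:**
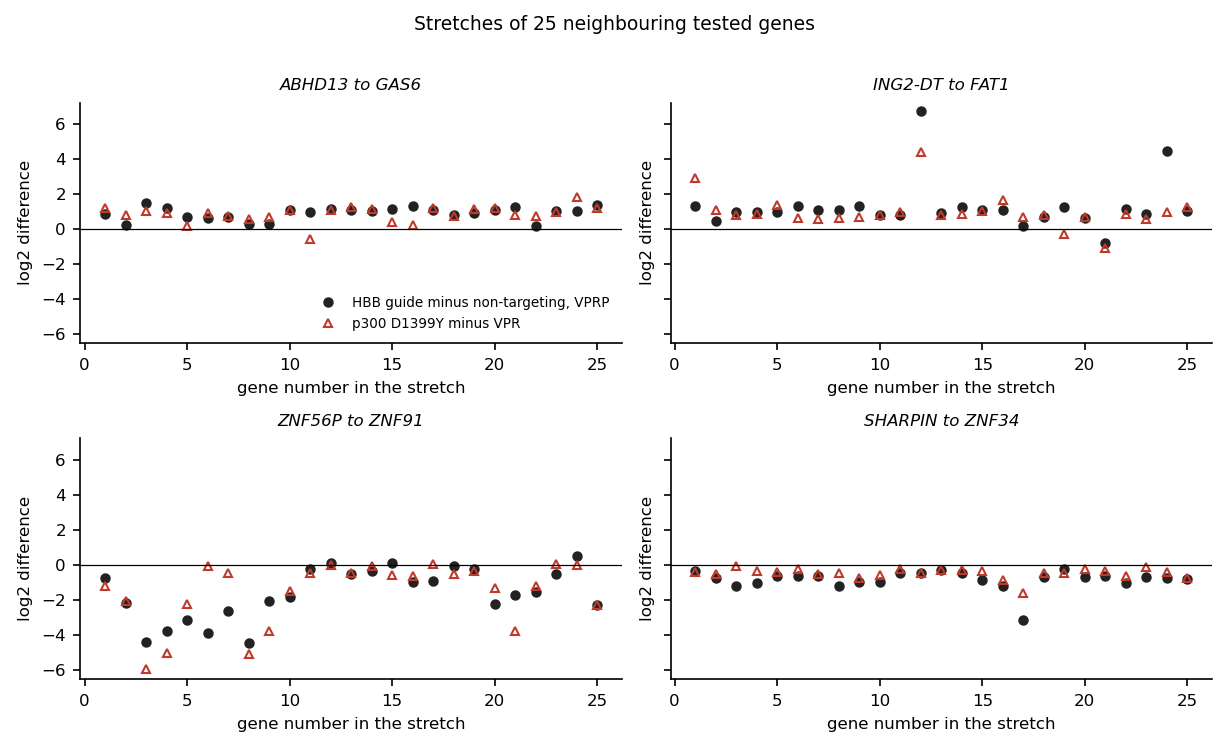
Log2 difference of each gene in 4 runs of 25 neighbouring tested genes, in RefSeq order (black circles, HBB guide minus non-targeting guide with VPRP; red triangles, p300 D1399Y minus VPR, both with the HBB guide). In ABHD13 to GAS6 the medians are 1.04 and 0.91, in ING2-DT to FAT1 1.03 and 0.80. HELT, the highest point of the latter, had no read with the non-targeting guide, so that its fitted value is no measured fold. In p300 D1399Y against p300, which is not drawn, ABHD13 to GAS6 and ING2-DT to FAT1 had medians of 0.03 and 0.06.

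Pairs of groups that share no library with the comparison, and in which both sides hold the HBB guide, were set beside it. p300 D1399Y against VPR was taken because earlier results had shown MAGEA10 to be low in the first and high in the second, as here. In it 1708 of the 16694 genes were higher (10.2%) and 1819 lower (10.9%). Of the 336 genes at least 2-fold higher with the HBB guide, 174 (51.8%) were also higher in p300 D1399Y than in VPR, which is 10.2% of the 1708, and 1 was lower. Of the 628 genes at least 2-fold lower, 160 (25.5%) were also lower there, 8.80% of the 1819, and 10 were higher. DMBT1, EVPL, MYO1A, COL16A1 and SV2A were higher in this pair too, by 1.76 to 2.26 on the log2 scale. CDKN1A was higher (log2 0.87), and 18 of 24 p53 targets rose and 0 fell. The stretches from ABHD13 to GAS6 and from ZNF56P to ZNF91 had medians of 0.91 and -0.65 in this pair.

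The second pair was p300 D1399Y against p300. EP300 reads are low in the first (195 CPM) and high in the second (1124 CPM), as with the HBB guide against the non-targeting guide. The sides of this pair also differ in the D1399Y change itself, whereas VPRP was the effector on both sides of the guide comparison. EP300 reads and the change in the enzyme cannot be told apart in this pair. In it 2501 genes were higher (15%) and 2575 lower (15.4%). Of the 336 higher genes 85 (25.3%) were higher there too, 3.40% of the 2501, and 42 were lower. Of the 628 lower genes 164 (26.1%) were lower there, 6.37% of the 2575, and 23 were higher. The histone genes differed between the pairs. In p300 D1399Y against p300 10 of 19 fell, with a median log2 difference of -0.95, while in p300 D1399Y against VPR 0 were called by edgeR in either direction and the median was 0.00. H2AC6 gave log2 -2.99 in the former and 0.05 in the latter, and DHRS2 -6.51 and 0.44. The DUX4 targets fell in 6 of 11 genes against p300 and in 0 against VPR. In the latter pair the list summed to at most 2.05 CPM with VPR and 2.49 with p300 D1399Y, which leaves little room for a fall. Cancer-testis genes fell in 7 of 11 in either pair. The list holds MAGEA10, by which p300 D1399Y against VPR was chosen, so the count in that pair was partly set by the choice. Of 24 p53 targets 17 rose and 1 fell in p300 D1399Y against p300. The stretches from ABHD13 to GAS6 and from ZNF56P to ZNF91 had medians of 0.03 and -0.08 there.

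The genes at least 2-fold different were then followed through all 12 libraries. These sets were chosen on the 4 VPRP libraries, and a gene of low level may have passed the count filter only through the group where it was high, so the levels are a description and nothing is read from where a group lies. Over the 336 higher genes the median level was 5.68 and 5.28 CPM with the HBB guide and 2.0 and 1.97 with the non-targeting guide. WT had 1.85 and 1.88 CPM, VPR 3.04 and 2.63, p300 4.59 and 4.77 and p300 D1399Y 5.00 and 5.05.

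Over the 628 lower genes the median was 0.718 and 0.829 CPM with the HBB guide and 2.92 and 2.94 with the non-targeting guide. It was 0.706 and 0.776 CPM in WT, 0.823 and 0.855 with VPR, 0.734 and 0.766 with p300 and 0.405 and 0.415 with p300 D1399Y.

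**Figure D5:**
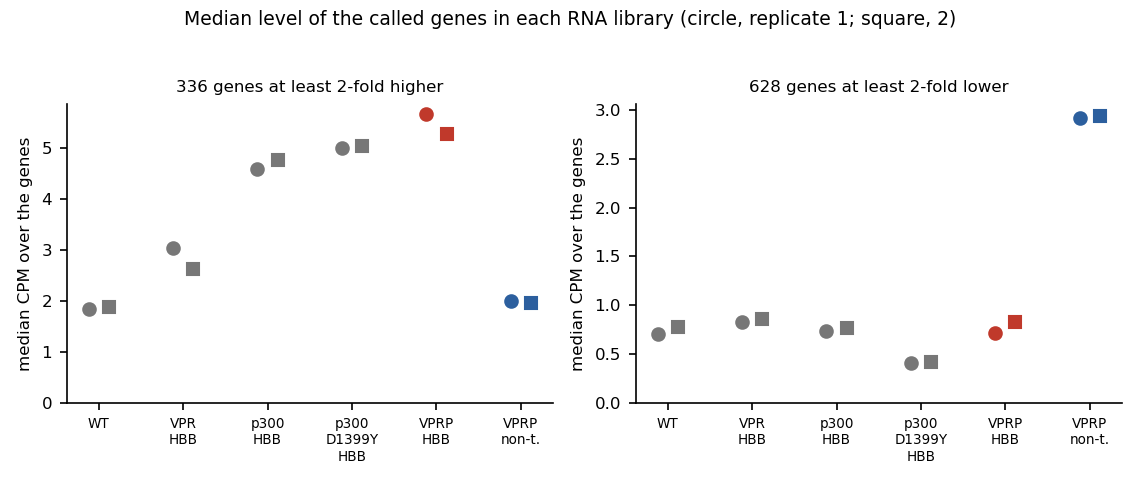
Median CPM in each RNA library over the 336 genes at least 2-fold higher with the HBB guide and the 628 at least 2-fold lower (circle, replicate 1; square, replicate 2). In the first set the HBB-guide libraries are at 5.68 and 5.28 CPM, and in the second the non-targeting libraries are at 2.92 and 2.94 CPM, each high by the choice of the set.

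Of the 336 higher genes 145 (43.2%) were not called in the same direction in either pair, and of the 628 lower genes 341 (54.3%), which does not show that they did not differ there. Among those with a symbol, a mean log2 CPM of at least 1 and groups that did not overlap were 65 higher and 79 lower genes. Among the 8 highest were PLXNA4, APOBEC3B, an enzyme that deaminates cytosines in DNA (3.33 and 3.76 CPM against 0.911 and 1.22, 3.30-fold), and TGFA, a ligand of the EGF receptor (9.59 and 8.07 CPM against 2.92 and 2.71, 3.12-fold). KIAA0319, a gene of neuronal migration, was at 7.50 and 6.96 CPM against 2.37 and 2.38 (3.03-fold). HLA-DRB5 was 3.18-fold higher, a call lost without non-targeting replicate 1.

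Among the lower genes of that kind was FOXJ1, the master factor of motile cilia, at 2.48 and 3.04 CPM against 13.8 and 10.9 (4.45-fold lower). FOXJ1 was at 0.0323 CPM in WT and at most 0.238 on average in the other groups with the HBB guide, so that both VPRP groups were above all others and the non-targeting one highest. IZUMO4, of a sperm protein family, was at 3.39 and 3.15 CPM against 12.3 and 11.6 (3.65-fold lower), with 0.396 CPM in WT. ZNF280A was at 1.89 and 2.32 CPM against 8.93 and 9.75 (4.40-fold lower), and GOLGA8M, a member of a near-identical family, was 3.71-fold lower with no read in WT or VPR. HELZ-AS1, an antisense gene, was 4.73-fold lower, and its reads may include those of its partner if strand was not used in the counting.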

How the data were processed

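The deposited table holds whole-number read counts per gene, which the authors made from paired-end, poly(A)-selected RNA of HEK293 cells. The submitters' processing notes name STAR 2.5, HTSeq 0.6.1, DESeq2 1.24.0, BWA, deepTools and the build hg19, with no role for each. Which gene annotation the reads were counted on, and whether strand was used, is not given in the sources used here. The 10 H3K27ac samples were not analysed here. Samples were grouped by their labels. RefSeq names (GRCh38.p14) matched 33626 of the 48162 gene IDs, and the 14536 others have no symbol. Neighbour order and the printed promoters come from the same RefSeq release, and its coordinates were not mixed with hg19.

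Genes with a count of at least 10 in enough libraries for the smallest group and 15 in total were kept by edgeR's filterByExpr (edgeR 4.0.16, limma 3.58.1, R 4.3.3), leaving 16694. One quasi-likelihood fit with TMM scaling over all 12 RNA libraries, a coefficient for each of the 6 groups and no other covariate gave each contrast, so the groups share 1 estimate of the spread. Plots and levels on a log scale add 0.1 CPM (Python 3.11.15, matplotlib 3.10.9). The fit was tested on simulated data. Counts of 0 give a fold limit from 3 counts over the group, and groups with 1 to 3 counts a count ratio with an exact 95% interval.

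The text names HBB, the globins, EP300, CREBBP, RELA and MAGEA10, the 12 largest changes each way (adjusted p under 0.05, at least 2-fold, mean log2 CPM of at least 1, a symbol, no overlap of groups), the 8 largest each way of these in neither side comparison, the 6 largest each way with a mean log2 CPM of at least 6, neighbours of HBB with counts, and up to 6 called members of each list beside members whose role is needed. The 43 gene lists hold 826 symbols, of which 794 matched. The comparison, the members and the lists were chosen with earlier results of these data known. Alternatives were DESeq2 1.42.0, other size factors, other count filters, the 4 libraries alone, a replicate block and leaving out each library.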

Additional observations from a re-analysis of the deposited data

How the results depend on the processing

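EP300 and HBB kept their direction and their call under every alternative run. Which of the 2 directions had more calls did not hold, with 2491 higher and 2407 lower becoming 2369 and 2507 with RLE size factors and 2420 and 2433 with the stricter filter. For p300 D1399Y against VPR, 1708 higher and 1819 lower became 1034 and 943 without p300 D1399Y replicate 1, 1250 and 1219 without its replicate 2, and 1136 and 1061 without VPR replicate 2. For p300 D1399Y against p300, 2501 and 2575 became 2560 and 2535 with the stricter filter. DESeq2 called 3956 genes (280 at least 2-fold higher, 448 lower), the 4 VPRP libraries alone 5340, and the table without a count filter 4609. Leaving out 1 of the 12 libraries gave 3185 to 5438 calls in all, 1774 to 2868 higher, 1392 to 2570 lower, 283 to 358 at least 2-fold higher and 417 to 652 at least 2-fold lower. It gave 1034 to 1790 higher and 943 to 1980 lower for p300 D1399Y against VPR, and 1496 to 2788 and 1675 to 2837 for p300 D1399Y against p300. Where it took a VPRP library, 1 library of that group was left, which is assumed to vary like the other groups, and fewer samples were fitted. EP300 stayed between -1.72 and -1.55 on the log2 scale, and the log2 limit of HBB between 13.05 and 14.28. HBE1, not called in any setting, ran from -0.113 to 0.0345 when 1 library was left out and changed sign without HBB-guide replicate 2 (log2 0.0345). No scaling moved the median of all genes by over 0.1.

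Of 332 single genes recomputed, 329 were called as reported, 205 in every setting, and 124 lost the call in at least 1. Over runs of 15 neighbouring genes the highest and lowest medians were 1.06 and -2.07, and over runs of 50 genes 0.88 and -0.65, which follows from the length of the run.

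Samples with the same number share only that number. Their deviations from the group means correlated at -0.295 to 0.238 over the pairs of groups, and at 0.136 between the 2 VPRP groups, which give only 2 pairs. With a replicate block 4676 genes were called, 2383 higher and 2293 lower, and 328 and 601 at least 2-fold, and 9 of the single genes lost the call. The planned search of promoters for matches to the HBB guide's target was not run, since the guide's sequence and the HBB promoter were not used here. Depth limits the neighbours of HBB, of which 24 had 10 counts or fewer.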
